A study of Mus musculus with 14 samples.

Results

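The postnatal change of paws without Krt9 was described across all expressed genes, by setting the 3 Krt9-/- libraries of postnatal day 3 (P3) against the 2 Krt9-/- libraries of the day of birth (P0). These libraries were chosen by their labelled genotype and day alone, and they are 5 of the 14 libraries of the series. The series compares whole paws of Krt9-/- and wild-type (WT) mice on both days by sequencing total RNA depleted of ribosomal RNA. The 4 WT libraries of P0 and the 5 of P3 serve here to show where the change without Krt9 differs. Of the Krt9-/- libraries, replicate 1 of P0 and replicate 1 of P3 are labelled male, and replicate 2 of P0 and replicates 2 and 3 of P3 female. Each of the 5 carries its own litter number. The labels give neither the type of the Krt9 allele nor the strain, and no treatment. Nor do they say whether a library holds 1 animal or a pool, so the p-values below measure a spread between libraries. That spread is estimated over all 14 libraries of the series, so it rests on the WT libraries too.

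Krt9 is a type I keratin made by the suprabasal keratinocytes of palm and sole skin, the thick ridged epidermis that bears load. Keratinocytes leave the basal layer, exchange the basal keratins Krt5 and Krt14 for suprabasal ones, and end as dead cornified cells in a matrix of ceramides, cholesterol and fatty acids. In the first days of life the paw also lays down hair follicles and pigment, replaces fetal muscle isoforms by adult ones and leaves the hormonal state of birth.

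Depth over these 5 libraries ran from 28947715 to 36894536 counts, and 25119 to 26652 genes were detected in each. Levels are given as CPM, read counts scaled by TMM for the depth of each library, and libraries in the order of their replicate numbers. The labelled tissue was seen in its genes: the distal limb gene Hoxd13 lay between 26.3 and 55.9 CPM in the 5 libraries, the basal keratin Krt5 between 2310 and 3640 CPM, and the bone sialoprotein gene Ibsp between 207 and 587 CPM. On the first principal component of the 5 libraries, which held 53.3% of the variance, P0 lay at -25.32 and -50.16 and P3 at 51.97, 24.08 and -0.57. The table's columns stand in a pair of alphabetical runs, called block A and block B here. Block A holds replicate 1 of P0 and replicate 2 of P3, and block B replicate 2 of P0 and replicates 1 and 3 of P3. The headers do not say what the runs stand for. Keratins took 2.4% and 1.56% of the counts on P0 and 4.37%, 2.11% and 3.99% on P3, and collagens 6.62% and 4.49% against 3.96%, 8.44% and 3.19%. In a whole paw, fewer cells of a type and less RNA per cell cannot be told apart.

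Krt9 itself (ENSMUSG00000051617.4) was read in every Krt9-/- library. It stood at 6.08 and 5.32 CPM on P0 and at 25.2, 7.74 and 11.5 CPM on P3, and the days did not overlap. The fitted log2 fold change was 1.37 (± 0.61 SE, adjusted p = 0.3 by edgeR), so the change did not pass, and it was 0.72 without replicate 1 of P3. WT paws ranged from 2.09 to 7.61 CPM on P0 and from 32.9 to 83 CPM on P3, a log2 fold change of 3.42. The test of the difference between the day changes gave -2.05 (edgeR's unadjusted p = 0.0157), which did not pass after adjustment. Krt19, a keratin of simple epithelia, was at 99.6 and 209 CPM on P0 and at 48.9, 68.1 and 92.2 CPM on P3. Its log2 fold change of -1.16 (± 0.36 SE, adjusted p = 0.146 by edgeR) did not pass either and was -0.41 without replicate 2 of P0, while every WT library held between 0.865 and 1.95 CPM.

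Between P0 and P3, 166 of the 21619 genes tested passed an adjusted p of 0.05 in Krt9-/- paws (0.768%), with 73 higher on P3 (0.338%) and 93 lower (0.43%). The Krt9-/- libraries of the days did not overlap in any of the 166. Of all genes tested, 11.8% had every P3 library above both P0 libraries and 13.8% every one below. Genes that rose had a median log2 fold change of 1.32 and genes that fell one of -1.26, and the smallest changes called were 0.63 and -0.61. The median over all genes tested was -0.01. At an unadjusted p under 0.05, 3435 genes passed (15.9%). Because their days do not overlap, each of the 166 must also keep its direction within block A and within block B. The direction within blocks is therefore no further check of these genes.

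**Figure D1:**
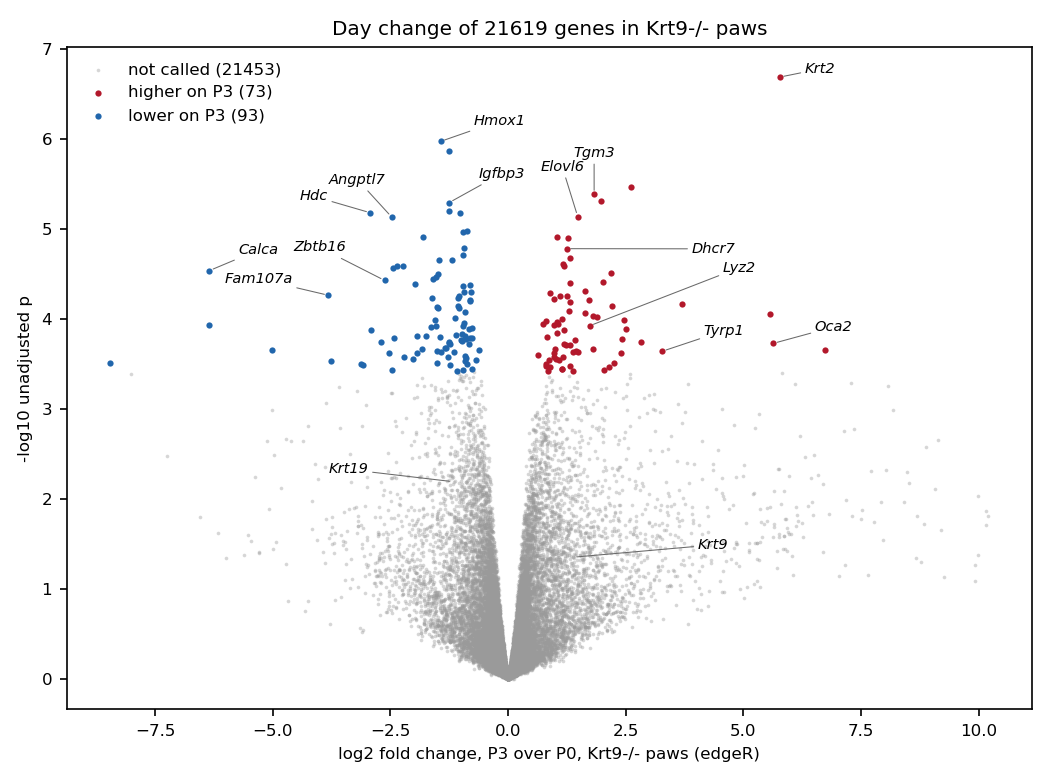
Day change of each gene tested in Krt9-/- paws. The x axis is the fitted log2 fold change of P3 over P0, the y axis the -log10 of edgeR's unadjusted p, and each point is 1 gene. Red points are the 73 genes higher on P3, blue points the 93 genes lower, and grey points were not called. Krt2 has the highest point, at a log2 fold change of 5.77, and Krt9 and Krt19 lie among the grey points.

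The number of calls rested on single libraries. Without replicate 2 of P0, edgeR called 0 genes, with 1747 at an unadjusted p under 0.05. Without replicate 1 of P3 it called 2, Krt2 and Hmox1, and without replicate 3 of P3 67. Without replicate 2 of P3 it called 645, of which 162 were among the 166. Without replicate 1 of P0 it called 176, of which 83 were among the 166. WT libraries, which enter the same fit, moved the count too: 81 genes were called without WT replicate 1 of P0, 78 without WT replicate 2 of P3 and 83 without WT replicate 4 of P3. Replicate 2 of P0 lay farther from P3 than replicate 1 in 65 of the 73 genes that rose and in 82 of the 93 that fell. Replicate 1 of P3 lay farthest from P0 in 58 and 64 of them. With the block as a term in the fit 1070 genes were called (4.95%) and with DESeq2 1090 (5.04%), and each set held all 166.

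Among the epidermal genes, Krt2 (ENSMUSG00000064201.9), the type II keratin of the upper spinous and granular layers, had the smallest p of all genes tested. It stood at 5.37 and 3.38 CPM on P0 and at 407, 129 and 170 CPM on P3. Every P3 library was far above both P0 libraries, and replicate 1 was the highest. The log2 fold change was 5.77 (± 0.55 SE, adjusted p = 0.00446 by edgeR), and Krt2 was called under 25 of the 26 alternatives. WT paws went from 2.29 to 6 CPM on P0 up to 66 to 157 CPM on P3, a log2 fold change of 4.64. The difference between the day changes had an unadjusted p of 0.0622 by edgeR.

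Other keratins of differentiated epidermis and its appendages rose with it. Krt24 was at 10.8 and 6.2 CPM on P0 and at 44.5, 23.9 and 29.7 CPM on P3 (log2 fold change 2.02 ± 0.34 SE, adjusted p = 0.0239 by edgeR). Krt79, a keratin of the hair follicle canal and sebaceous ducts, was at 120 and 70.4 CPM on P0 and at 304, 233 and 181 CPM on P3 (log2 fold change 1.38 ± 0.30 SE, adjusted p = 0.0497 by edgeR). Together with Krt2 these were 3 of the 9 differentiation keratins, against 0.338% of all genes tested called higher, and no other passed. The abundant suprabasal pair did not: Krt1 was at 8330 and 4450 CPM on P0 and at 18300, 6770 and 17200 CPM on P3, and Krt10 at 6400 and 3000 CPM against 15300, 5140 and 14100 CPM. In both, replicate 2 of P3 lay between the P0 libraries and the other P3 libraries lay above them. All 9 had positive fitted values, with a median of 1.24 in Krt9-/- paws and -0.44 in WT paws. In WT paws 3 of the 9 were called higher, again Krt2, Krt24 and Krt79, and 2 were called lower. The WT shares over all genes tested were 8.49% higher and 8.07% lower. The WT log2 fold changes of Krt24 and Krt79 were 1.58 and 2.09.

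The genes of the cornified layer gave 1 call each in a pair of lists. Tgm3 (ENSMUSG00000027401.10), a transglutaminase that cross-links the cornified envelope, was at 74.1 and 42.4 CPM on P0 and at 231, 122 and 224 CPM on P3. It rose by a log2 fold change of 1.83 (± 0.26 SE, adjusted p = 0.0133 by edgeR). WT paws overlapped between the days, at 63.1 to 120 and 85.6 to 124 CPM. Tgm3 was the 1 member called of 40 cornified envelope genes, where 0.338% of all genes tested were called higher. The median of the 40 was 0.64 in Krt9-/- and -0.59 in WT paws. Loricrin (Lor), the main envelope protein, was at 4920 and 3490 CPM on P0 and at 8940, 5970 and 5900 CPM on P3, and did not pass (log2 fold change 0.81 ± 0.24 SE, adjusted p = 0.127 by edgeR). Of 24 barrier lipid enzymes 1 was called, the elongase Elovl6 described with the fatty acid enzymes. Slc27a4, a fatty acid transporter of the skin barrier that is not on that list, was at 91.8 and 54.7 CPM on P0 and at 173, 95.9 and 142 CPM on P3 (log2 fold change 1.00 ± 0.21 SE, adjusted p = 0.0398 by edgeR). All 24 listed enzymes had positive fitted values, with a median of 1.05, against -0.50 in WT paws. Without replicate 3 of P3 the medians of the cornified envelope and the barrier lipid enzymes were 0.31 and 0.56.

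These epidermal medians moved with the block. Within block A, where 1 P3 library stands against 1 P0 library, the median log2 difference was -0.05 for differentiation keratins, -0.47 for the cornified envelope and -0.50 for barrier lipid enzymes. Within block B, with 2 P3 libraries against 1, it was 1.73, 1.07 and 1.51. In a fit that gave each day its own block term, the medians were 0.34, -0.26 and -0.10. The 18 epithelial markers moved alongside: their summed level was 4630 and 3210 CPM on P0 and 8950, 3700 and 8320 CPM on P3, with medians of -0.18 in block A and 1.02 in block B and no member called. Their part in the epidermal values was not tested. The days did not overlap in Krt2, Krt24, Krt79 and Tgm3, so a rise in both blocks was given in advance. Its size was 4.47, 1.11, 0.95 and 0.72 in block A on the log2 scale. In block B it was 6.09, 2.46, 1.73 and 2.41.

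Outside these lists, a granule gene of the epidermis was called in Krt9-/- paws and had a small p in the test of the difference from WT. Tmem79 (ENSMUSG00000001420.14), a membrane protein of the lamellar granules of keratinocytes, was at 14.1 and 7.03 CPM on P0 and at 26.3, 16.4 and 21.9 CPM on P3. It rose by 1.19 (± 0.23 SE, adjusted p = 0.0332 by edgeR) and fell by 0.68 in WT paws (edgeR's adjusted p = 0.0124), the 1 gene called in opposite directions. Its difference had an unadjusted p of 9.882e-06 by edgeR and an adjusted p of 0.107, so it did not pass. WT libraries of Tmem79 overlapped between the days, at 10.6 to 25.5 CPM on P0 and 9.64 to 14.5 CPM on P3. The Krt9-/- rise of Tmem79 also moved with the block: the log2 difference was 1.70 for block B but only 0.21 for block A.

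**Figure D2:**
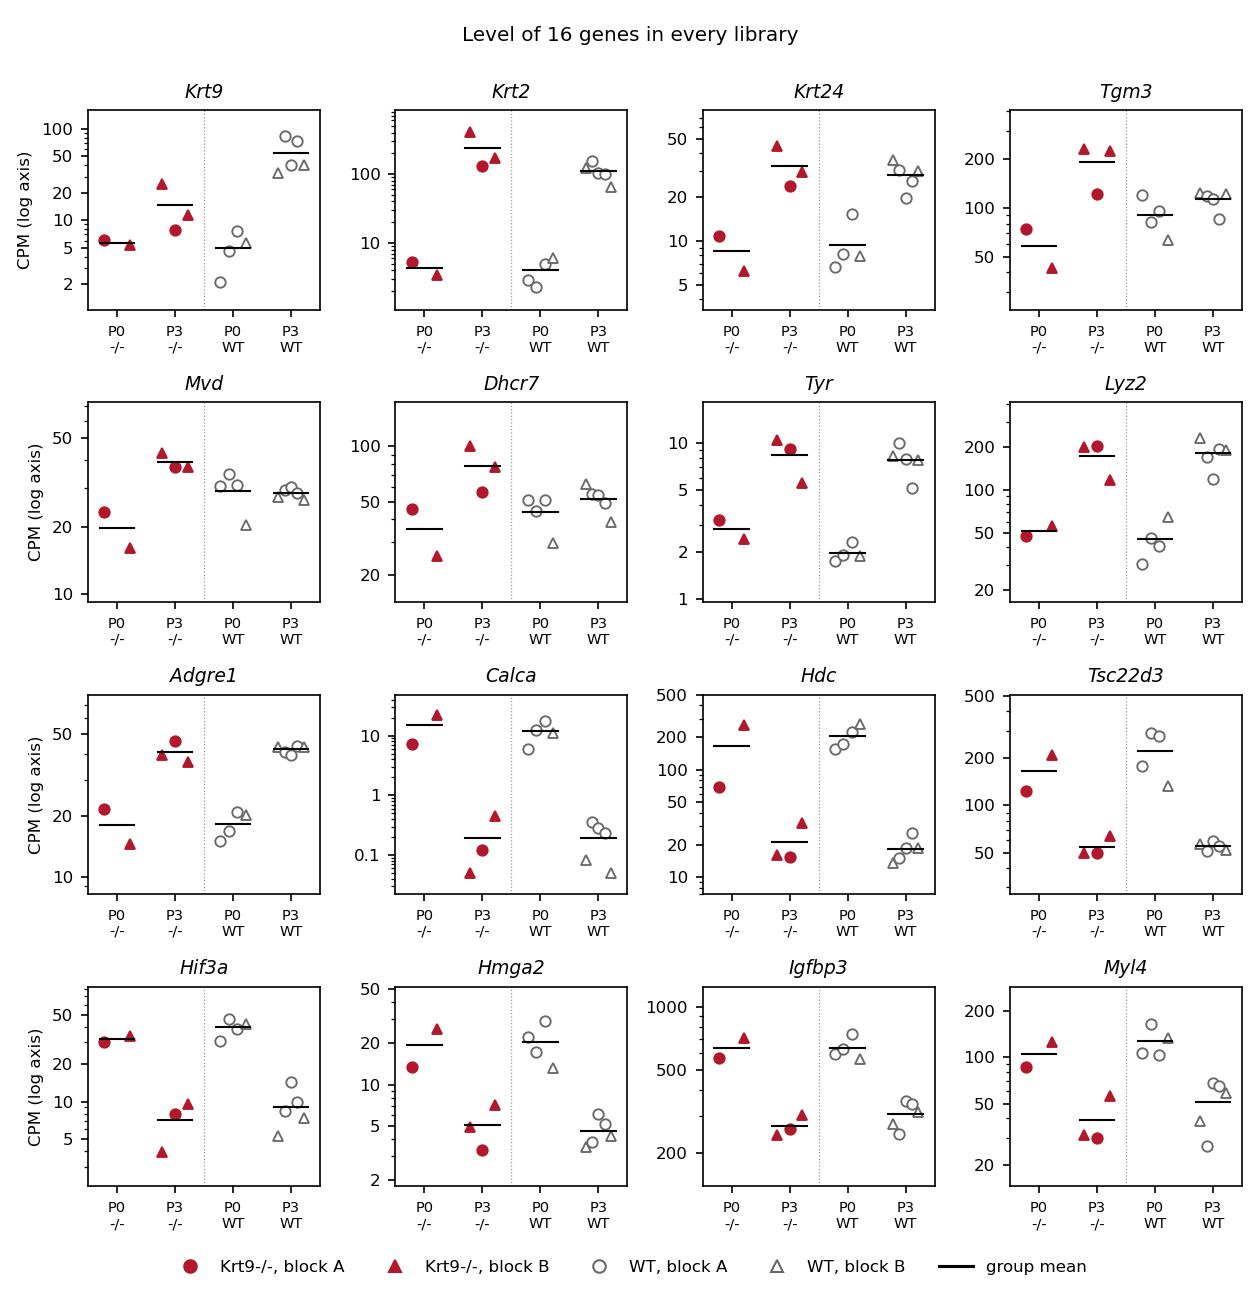
Level of 16 genes in each library. Each panel has CPM on a log axis, red points for Krt9-/- and open points for WT libraries, circles for block A and triangles for block B, and a bar at the group mean; a level of 0, as in 1 Krt9-/- and 1 WT library of P3 for Calca, is drawn at 0.05. In every panel but Krt9 the gene was called in Krt9-/- paws; Krt2 shows the widest upward gap and Calca the widest downward gap, and Tgm3, Mvd and Dhcr7 overlap between the days in WT paws.

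Enzymes of cholesterol synthesis were among the genes that rose in Krt9-/- paws. Cells build cholesterol from acetyl-CoA through mevalonate and squalene, and the enzymes share control by the sterol-sensing factor Srebf2. Of 24 genes of this pathway 4 were called, all higher, against 0.338% of all genes tested, and 23 had a positive fitted value. Dhcr7 (ENSMUSG00000058454.16), which makes cholesterol from 7-dehydrocholesterol, was at 45.6 and 25.4 CPM on P0 and at 101, 56.1 and 76.8 CPM on P3 (log2 fold change 1.24 ± 0.20 SE, adjusted p = 0.0189 by edgeR). Mvd, the decarboxylase of the mevalonate branch, was at 23.5 and 16.1 CPM on P0 and at 43.2, 37.4 and 37.3 CPM on P3 (log2 fold change 1.03 ± 0.20 SE, adjusted p = 0.0323 by edgeR). In each of them the 3 P3 libraries were above both P0 libraries.

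The other pair of calls stood in the middle of the pathway. Cyp51, the lanosterol demethylase, was at 60.9 and 47.4 CPM on P0 and at 157, 89.9 and 129 CPM on P3 (log2 fold change 1.24 ± 0.25 SE, adjusted p = 0.0376 by edgeR). Sqle, the squalene epoxidase, was at 71.1 and 43.3 CPM on P0 and at 156, 87 and 123 CPM on P3 (log2 fold change 1.17 ± 0.25 SE, adjusted p = 0.0421 by edgeR).

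The median of the 24 was 0.84 in Krt9-/- paws and -0.03 in WT paws, and 0.34 in block A and 1.14 in block B. In the test of the difference between genotypes, 17 of the 24 (70.8%) had an unadjusted p under 0.05, against 7.6% of all genes tested, and no member passed after adjustment. DESeq2 called 17 members higher and the fit with the block term 11, where these fits called 5.04% and 4.95% of all genes tested. Without replicate 2 of P0 edgeR called none, and the median was 0.82. The epithelial markers moved the same way, with medians of 0.70 in Krt9-/- and -0.31 in WT paws, and 50% of them had an unadjusted p under 0.05 in the test of the difference. Like the cholesterol genes they were lower in block A (-0.18) than in block B (1.02), and their part in the cholesterol values was not tested.

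**Figure D3:**
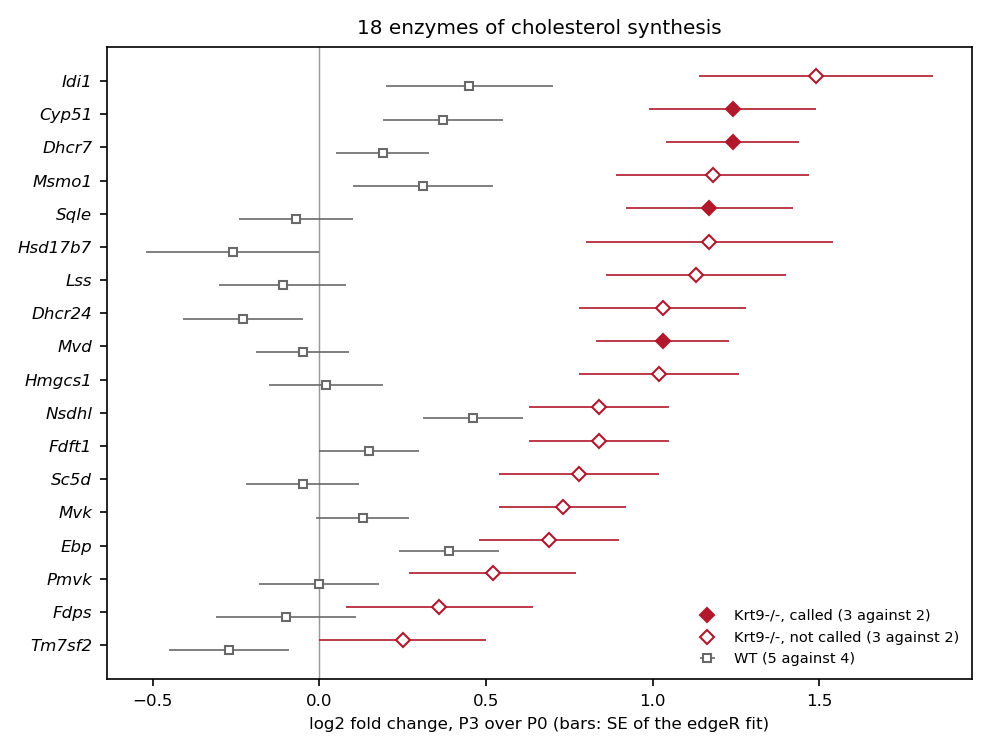
Day change of 18 enzymes of cholesterol synthesis, members of the list of 24. The x axis is the fitted log2 fold change of P3 over P0 with its SE as a bar; red diamonds are Krt9-/- paws, filled for the 4 genes called, and open squares are WT paws. The red points reach from 0.25 (Tm7sf2) to 1.49 (Idi1), and the filled points are Cyp51, Dhcr7, Sqle and Mvd.

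A few fatty acid enzymes rose beside them. Elovl6 (ENSMUSG00000041220.11), which elongates palmitate, was at 63.8 and 42.3 CPM on P0 and at 173, 136 and 113 CPM on P3 (log2 fold change 1.48 ± 0.22 SE, adjusted p = 0.0133 by edgeR), and rose in WT paws as well, by 1.17. Acly, which supplies cytosolic acetyl-CoA, was at 165 and 103 CPM on P0 and at 257, 182 and 233 CPM on P3 (log2 0.80, SE 0.17). Scd2, a desaturase of newborn skin, was at 320 and 248 CPM on P0 and at 559, 430 and 463 CPM on P3 (log2 0.80, SE 0.15). Acly and Scd2 had edgeR's adjusted p of 0.0462 and 0.0318 here and were not called in WT paws, where they changed by 0.11 and 0.24. The tests of these differences had unadjusted p of 0.0052 and 0.0087, and neither passed after adjustment. Faah, which breaks down fatty acid amides, was at 6 and 5.24 CPM on P0 and at 44, 11.3 and 22.1 CPM on P3 (log2 fold change 2.18 ± 0.37 SE, adjusted p = 0.0219 by edgeR). Faah was called higher in WT paws too, at a log2 fold change of 1.17. Of 30 adipocyte genes none was called, with a median of 0.68.

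A few pigment genes rose in both genotypes. Melanocytes make melanin in melanosomes with the enzymes Tyr, Tyrp1 and Dct, and their genes are targets of the factor Mitf, which binds a DNA element known as the M-box. Of 13 melanocyte genes 3 were called, all higher, against 0.338% of all genes tested. The promoters of these 3 are shown because they moved together and because the letters TCATGTG, the core of an M-box, can be looked for in them. Each runs from 250 bases before to 50 bases after the gene's start in RefSeq (GRCm38.p6), 5′ to 3′ on the gene's strand, and capitals mark TCATGTG. The windows are chr7:87493463-87493762 on the minus strand for Tyr, chr4:80833963-80834262 on the plus strand for Tyrp1 and chr7:56239509-56239808 on the plus strand for Oca2.
Tyr: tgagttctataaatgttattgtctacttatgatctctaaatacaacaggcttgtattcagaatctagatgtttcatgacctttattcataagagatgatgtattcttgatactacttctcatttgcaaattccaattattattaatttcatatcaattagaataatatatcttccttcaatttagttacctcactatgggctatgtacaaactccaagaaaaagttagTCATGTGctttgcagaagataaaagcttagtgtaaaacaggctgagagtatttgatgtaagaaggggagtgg
Tyrp1: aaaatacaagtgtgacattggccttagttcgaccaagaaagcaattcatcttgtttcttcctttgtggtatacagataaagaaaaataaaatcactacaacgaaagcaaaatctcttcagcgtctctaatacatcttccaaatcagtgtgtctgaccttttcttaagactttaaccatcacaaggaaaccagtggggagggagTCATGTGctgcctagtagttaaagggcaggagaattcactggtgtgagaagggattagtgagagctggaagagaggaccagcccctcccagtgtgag
Oca2: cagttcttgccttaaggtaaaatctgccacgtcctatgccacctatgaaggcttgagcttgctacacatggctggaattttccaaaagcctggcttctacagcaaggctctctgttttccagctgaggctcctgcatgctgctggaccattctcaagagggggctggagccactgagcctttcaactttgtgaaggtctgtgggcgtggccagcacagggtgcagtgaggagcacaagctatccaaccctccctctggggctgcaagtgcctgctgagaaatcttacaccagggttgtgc

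Both strands were searched. The match begins 22 bases before the start in Tyr and 47 bases before it in Tyrp1, and the window of Oca2 holds none. Of 32851 promoters of this length 3.77% hold the letters, counted per promoter. Counted per gene, with a match in any of its promoters, 5 of the 9 melanocyte genes with a RefSeq promoter do. The shares are thus in unlike units. The other 3 of these 5 are Dct, Mc1r and Slc24a5, none of which was called, at log2 fold changes of 1.40, 1.01 and 0.06. A match is a run of letters and not a measured site.

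Tyr (ENSMUSG00000004651.7), the enzyme that starts melanin synthesis, was at 3.21 and 2.42 CPM on P0 and at 10.4, 9.19 and 5.55 CPM on P3 (log2 fold change 1.63 ± 0.29 SE, adjusted p = 0.0257 by edgeR). Tyrp1 (ENSMUSG00000005994.15), a later enzyme of the pathway, was at 3.82 and 0.428 CPM on P0 and at 15.8, 20 and 11.1 CPM on P3 (log2 fold change 3.27 ± 0.64 SE, adjusted p = 0.0398 by edgeR). Oca2 (ENSMUSG00000030450.12), a melanosome membrane transporter, had 3 counts in the P0 libraries together and 172 in the P3 libraries. The ratio scaled for depth was 43.8, with an exact 95% interval of 14.8 to 215 that covers counting error only. In all 3 genes the days were apart in Krt9-/- and in WT paws. The value of Tyrp1 was 5.06 without replicate 1 of P0 and 2.32, no longer called, without replicate 2, and Tyrp1 was called under 13 of the 26 alternatives. The WT log2 fold changes of Tyr and Tyrp1 were 1.94 and 3.65. The list's median was 1.23 in Krt9-/- and 1.56 in WT paws, and 0.74 without replicate 2 of P3. Mitf itself was at 17.1 and 20.4 CPM on P0 and at 20.8, 15.6 and 15.7 CPM on P3.

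Among immune cell genes, 2 of macrophages rose and 2 of mast cells fell. Lyz2 (ENSMUSG00000069516.9), the lysozyme of macrophages and neutrophils, was at 47.8 and 55.6 CPM on P0 and at 199, 205 and 117 CPM on P3 (log2 fold change 1.73 ± 0.33 SE, adjusted p = 0.0325 by edgeR). Adgre1, which encodes the macrophage surface protein F4/80, was at 21.6 and 14.6 CPM on P0 and at 39.6, 46.2 and 36.6 CPM on P3 (log2 fold change 1.18 ± 0.20 SE, adjusted p = 0.0208 by edgeR). They were 2 of the 15 macrophage genes, against 0.338% of all genes tested called higher. The median of the 15 was 0.37, and the WT log2 fold changes of the pair were 2.03 and 1.21. The list did not move as 1: 11 members had positive and 4 negative values. The fit with the block term called 4 members higher and 3 lower, and DESeq2 5 higher and 1 lower. These fits called 4.95% and 5.04% of all genes tested. The median was 0.57 without replicate 1 of P0 and 0.24 without replicate 1 of P3. The summed level of the 15 was 609 and 709 CPM on P0 and 954, 940 and 837 CPM on P3. Ctsc, a lysosomal protease that activates granule enzymes, was at 81.2 and 65.9 CPM on P0 and at 175, 128 and 173 CPM on P3 (log2 fold change 1.10 ± 0.20 SE, adjusted p = 0.0257 by edgeR). Cd300ld, a receptor of myeloid cells, was at 0.918 and 0.428 CPM on P0 and at 4.27, 3.63 and 3.72 CPM on P3 (log2 fold change 2.60 ± 0.36 SE, adjusted p = 0.0133 by edgeR). Ctsc and Cd300ld were called higher in WT paws too, at log2 fold changes of 0.89 and 1.38.

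Hdc (ENSMUSG00000027360.6), the enzyme that makes histamine, fell from 69.2 and 263 CPM on P0 to 16.3, 15.6 and 32.4 CPM on P3. The P0 libraries differed widely from each other, and both were above every P3 library. Its log2 fold change was -2.93 (± 0.39 SE, adjusted p = 0.0133 by edgeR), with -3.45 in WT paws. The mast cell tryptase gene Tpsab1 was at 18.9 and 52.9 CPM on P0 and at 6.72, 4.9 and 9.2 CPM on P3 (log2 fold change -2.36 ± 0.38 SE, adjusted p = 0.0208 by edgeR). Without replicate 2 of P0 it was -1.50 and no longer called. These were 2 of 15 mast cell genes, against 0.43% of all genes tested called lower, and the median of the 15 was -0.89. Cpa3 and Cma1, abundant mast cell proteases, did not pass, at log2 -1.35 and -0.89, and Mcpt4 had -0.13. The summed level of the list was 1670 and 2990 CPM on P0 and 1090, 971 and 1680 CPM on P3, and replicate 3 of P3 overlapped the lower P0 library.

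In the interleukin-1 family, 3 receptor genes fell. Il1rl1, the receptor of interleukin-33 on mast cells and other type 2 immune cells, was at 50.2 and 85 CPM on P0 and at 17.8, 19 and 30.1 CPM on P3 (log2 fold change -1.64 ± 0.31 SE, adjusted p = 0.0325 by edgeR). Il1r1, the receptor of interleukin-1, was at 67.4 and 72.2 CPM on P0 and at 38.7, 37.7 and 38.1 CPM on P3 (log2 fold change -0.87 ± 0.13 SE, adjusted p = 0.0161 by edgeR). Il18r1, a receptor chain of interleukin-18, was at 1.69 and 4.81 CPM on P0 and at 0.39, 0.756 and 0.667 CPM on P3 (log2 fold change -2.45 ± 0.41 SE, adjusted p = 0.021 by edgeR). The 3 receptors fell in WT paws too, by 1.26, 0.79 and 1.57 on the log2 scale. The list of 18 interleukin-1 family and alarmin genes had 2 called lower, against 0.43% of all genes tested, and a median of 0.71. That median was -0.56 where each day had its own block term and 0.19 without replicate 3 of P3.

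Interferon-stimulated genes had no call in either genotype and a lower median in Krt9-/- paws. Of 23 genes 22 had a negative value, with a median of -0.84 in Krt9-/- and 0.10 in WT paws. Bst2, the membrane tether of budding viruses, was at 21.8 and 38 CPM on P0 and at 17.2, 15.6 and 14.5 CPM on P3 (log2 fold change -0.92 ± 0.23 SE, adjusted p = 0.0765 by edgeR). Irf9, a subunit of the interferon-activated transcription complex, was at 29.6 and 47 CPM on P0 and at 24.2, 23.1 and 20.5 CPM on P3 (log2 fold change -0.77 ± 0.19 SE, adjusted p = 0.08 by edgeR). In both genes replicate 2 of P0 was the highest library. The list's median was -0.55 without that library and -1.03 without replicate 1 of P0. In the test of the difference between genotypes 14 of 23 (60.9%) had an unadjusted p under 0.05 by edgeR, against 7.6% of all genes tested. None passed after adjustment. DESeq2 and the fit with the block term each called 7 members lower. These fits called 5.04% and 4.95% of all genes tested in either direction.

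Some genes that answer to glucocorticoids, the stress hormones that surge at birth, fell. Of 22 such genes 5 were called in Krt9-/- paws, all lower, and 14 were called lower in WT paws. Over all genes tested the shares called lower were 0.43% in Krt9-/- and 8.07% in WT paws. Zbtb16 (ENSMUSG00000066687.6), a transcriptional repressor, was at 7.2 and 27.2 CPM on P0 and at 1.78, 3.05 and 3.55 CPM on P3 (log2 fold change -2.62 ± 0.43 SE, adjusted p = 0.0238 by edgeR). Hif3a, a hypoxia-inducible factor subunit, was at 30.4 and 33.3 CPM on P0 and at 3.93, 7.98 and 9.62 CPM on P3 (log2 fold change -2.24 ± 0.36 SE, adjusted p = 0.0208 by edgeR). Tsc22d3, the glucocorticoid-induced leucine zipper gene, was at 123 and 208 CPM on P0 and at 49.9, 49.4 and 63.5 CPM on P3 (log2 fold change -1.61 ± 0.28 SE, adjusted p = 0.0257 by edgeR). In each of them both P0 libraries were above every P3 library. Without replicate 2 of P0 the value of Zbtb16 was -1.52 and no longer called.

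The remaining called members were Fkbp5, a chaperone of the glucocorticoid receptor, and the sulfotransferase gene Sult1a1. Fkbp5 was at 52.9 and 146 CPM on P0 and at 20.6, 28.3 and 41.2 CPM on P3 (log2 -1.74), and Sult1a1 at 11.2 and 36.8 CPM on P0 and at 6.72, 7.4 and 10.6 CPM on P3 (log2 -1.51). In 4 of the 5 genes replicate 2 of P0 held well above the level of replicate 1, and Hif3a was the exception. The median of the list was -0.68 in Krt9-/- and -1.09 in WT paws, and -0.42 without replicate 2 of P0. The clock gene Per1, which also answers to the hormone, did not pass here (92.8 and 102 CPM on P0, 67.4, 37.6 and 43.4 CPM on P3) and fell by 2.23 in WT paws. For Per1 the difference had an unadjusted p of 0.0578. Zbtb16 fell by 3.99 in WT paws, and the difference of 1.37 had an unadjusted p of 0.0251 by edgeR.

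The widest fall among genes of at least 2 CPM was that of Calca (ENSMUSG00000030669.14), which encodes calcitonin and the sensory neuropeptide CGRP. It was at 7.15 and 22.4 CPM on P0 and at 0, 0.121 and 0.456 CPM on P3, and its log2 fold change was -6.35 (± 0.97 SE, adjusted p = 0.0217 by edgeR). WT paws held 5.93 to 17.6 CPM on P0 and 0 to 0.361 CPM on P3. Fam107a, an actin-binding protein gene, was at 3.01 and 17.6 CPM on P0 and at 0.0837, 0.907 and 1.33 CPM on P3 (log2 fold change -3.82 ± 0.64 SE, adjusted p = 0.0257 by edgeR). Nptx1, a secreted pentraxin of neurons, was at 10.4 and 8.41 CPM on P0 and at 1.31, 2.69 and 0.913 CPM on P3 (log2 fold change -2.47 ± 0.53 SE, adjusted p = 0.0493 by edgeR). Each of the 3 fell in WT paws as well.

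Some muscle isoforms of the fetus and of slow or heart muscle fell, while none of 22 adult fast genes was called. Myl4, the embryonic light chain of myosin, was at 85.9 and 125 CPM on P0 and at 31.1, 29.9 and 55.6 CPM on P3 (log2 fold change -1.51 ± 0.30 SE, adjusted p = 0.0398 by edgeR). Tnnt2, the heart and fetal form of troponin T, was at 42.3 and 71.1 CPM on P0 and at 16.4, 14.7 and 33.5 CPM on P3 (log2 fold change -1.45 ± 0.29 SE, adjusted p = 0.0363 by edgeR). Myl3, a slow-muscle light chain, was at 10.4 and 12.1 CPM on P0 and at 2.01, 3.54 and 4.18 CPM on P3 (log2 fold change -1.97 ± 0.34 SE, adjusted p = 0.0239 by edgeR). Tnnc1, the slow and heart form of troponin C, was at 56.4 and 97.1 CPM on P0 and at 16.2, 23.4 and 46.2 CPM on P3 (log2 fold change -1.54 ± 0.29 SE, adjusted p = 0.0325 by edgeR). In all 4 genes the days were apart, and replicate 3 of P3 was the nearest to P0.

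Of the 8 developmental isoform genes 2 were called lower and of the 12 slow and heart-type genes 3, against 0.43% of all genes tested. The medians of these lists were -1.36 and -0.95 in Krt9-/- and -1.36 and -1.27 in WT paws. Mymx, a micropeptide that drives fusion of myoblasts, was at 4.71 and 6.9 CPM on P0 and at 1.06, 1.09 and 2.42 CPM on P3 (log2 fold change -2.02 ± 0.43 SE, adjusted p = 0.0432 by edgeR). The myosin heavy chains themselves did not pass. The embryonic Myh3 was at 843 and 485 CPM on P0 and at 79.9, 272 and 230 CPM on P3 (log2 fold change -1.89 ± 0.59 SE, adjusted p = 0.158 by edgeR), while the neonatal Myh8 overlapped between the days, at 753 and 555 against 297, 783 and 582 CPM. The adult Myh2 was at 18 and 9.9 CPM on P0 and at 39.7, 123 and 29.2 CPM on P3. The summed level of the 22 adult fast genes was 3120 and 3350 CPM on P0 and 1620, 2960 and 2830 CPM on P3, lowest in replicate 1 of P3.

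Several genes of vessels and of the mesenchyme fell. Pecam1, the adhesion protein of endothelial junctions, was at 194 and 204 CPM on P0 and at 76.6, 130 and 91.9 CPM on P3 (log2 fold change -1.03 ± 0.18 SE, adjusted p = 0.0257 by edgeR). Esam, a second junction protein, was at 43.7 and 41.2 CPM on P0 and at 18, 28.7 and 17.7 CPM on P3. It fell by 1.00 on the log2 scale (± 0.20 SE, adjusted p = 0.0367 by edgeR). Emcn, the sialomucin of capillaries and veins, was at 27.1 and 32.2 CPM on P0 and at 14.5, 20.2 and 16.2 CPM on P3 (log2 fold change -0.83 ± 0.17 SE, adjusted p = 0.0373 by edgeR). They were 3 of the 19 endothelial genes, against 0.43% of all genes tested called lower. In each of the 3, replicate 2 of P3 was the nearest to P0.

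The median of the endothelial list was -0.63 in Krt9-/- and -0.33 in WT paws. Block A gave -0.37 and block B -0.73, and the fitted value was -0.34 without replicate 1 of P0. The summed level was 1360 and 1160 CPM on P0 and 667, 1070 and 721 CPM on P3, where the summed epithelial markers were lowest in replicate 2. The part of a larger epithelial share in these values was not tested. Pecam1 fell by 0.46 in WT paws, and the difference had an unadjusted p of 0.0258.

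Vim, the intermediate filament of mesenchymal cells and the most abundant gene called, was at 3270 and 3590 CPM on P0 and at 1700, 1860 and 1740 CPM on P3 (log2 fold change -0.96 ± 0.17 SE, adjusted p = 0.0239 by edgeR). The size of the fall was 0.81 within block A and 1.06 within block B on the log2 scale. Cav1, the coat protein of caveolae, was at 712 and 883 CPM on P0 and at 386, 426 and 460 CPM on P3 (log2 fold change -0.93 ± 0.15 SE, adjusted p = 0.0189 by edgeR). Mgp, an inhibitor of calcification, was at 207 and 225 CPM on P0 and at 81.1, 97 and 108 CPM on P3 (log2 fold change -1.19 ± 0.19 SE, adjusted p = 0.0208 by edgeR). Angptl7, a secreted angiopoietin-like protein, was at 22.5 and 27.8 CPM on P0 and at 3.18, 4.81 and 5.72 CPM on P3 (log2 fold change -2.47 ± 0.36 SE, adjusted p = 0.0133 by edgeR). Vim, Cav1, Mgp and Angptl7 were called lower in WT paws too, at log2 fold changes of -0.92, -0.46, -0.99 and -2.57. None of 17 fibrillar and dermal collagens was called, though 14 had negative values, with a median of -0.43 (-0.34 in block A and -0.44 in block B), and the fit with the block term called 7 lower. That median was -0.11 without replicate 1 of P0 and -0.86 without replicate 2 of P3. None of 15 fibroblast genes was called, against 4 lower with the block term and 2 with DESeq2. Those fits called 4.95% and 5.04% of all genes tested in either direction. Col1a1 was at 19500 and 8950 CPM on P0 and at 9930, 30000 and 6910 CPM on P3.

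Some genes of fetal growth fell too. Hmga2 (ENSMUSG00000056758.15), a chromatin protein of fetal cells, was at 13.3 and 25.6 CPM on P0 and at 4.91, 3.35 and 7.06 CPM on P3 (log2 fold change -1.93 ± 0.38 SE, adjusted p = 0.0363 by edgeR). Without replicate 2 of P0 the value of Hmga2 was -1.23 and no longer called. The imprinted long RNA Meg3 was at 706 and 903 CPM on P0 and at 254, 444 and 492 CPM on P3 (log2 -1.08), and the imprinted Usp29 at 14.4 and 16.5 CPM on P0 and at 4.94, 7.49 and 8.39 CPM on P3 (log2 -1.26). Meg3 lay just inside the threshold and was called under 11 of the 26 alternatives. They were 2 of 23 imprinted growth genes, against 0.43% of all genes tested called lower. Of the 23, 20 had a negative value, with a median of -0.62 in Krt9-/- and -0.59 in WT paws. Igfbp3, a binding protein of insulin-like growth factors, was at 568 and 708 CPM on P0 and at 245, 260 and 305 CPM on P3 (log2 fold change -1.25 ± 0.18 SE, adjusted p = 0.0133 by edgeR). Hmga2 and Igfbp3 were called lower in WT paws too, at log2 fold changes of -2.17 and -1.04. The growth factor Igf2 overlapped between the days, at 252 and 116 against 86.3, 228 and 124 CPM.

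Hmox1 (ENSMUSG00000005413.9), which degrades heme, had the smallest p among the genes that fell. It was at 222 and 236 CPM on P0 and at 109, 62 and 82 CPM on P3, and in WT paws at 212 to 274 and 60 to 77.5 CPM. The log2 fold change was -1.43 (± 0.18 SE, adjusted p = 0.00979 by edgeR), and it was called under 24 of the 26 alternatives. Of the 22 antioxidant genes listed with it no other was called, and their median was 0.15. Red cell genes had a median of 2.31 over 22 members with none called. On P3 16 of the 22 were higher without overlap, against 11.8% of all genes tested. DESeq2 called 7 higher, where it called 5.04% of all genes tested in either direction. In WT paws the median was 2.23 and 9 were called higher, against 8.49% of all genes tested. The adult globin Hbb-bs was at 419 and 329 CPM on P0 and at 880, 1290 and 701 CPM on P3, and its WT log2 fold change was 0.08. Hbb-bs and Hbb-bt are near-identical copies, so reads may be split between them.

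Most of the genes called in Krt9-/- paws were also called in WT paws, where 3581 passed (16.6%). At an unadjusted p under 0.05, 30.7% of all genes tested passed in WT paws. Of the 166, 130 were called in WT paws in the same direction, which is 78.3% of the list here and 3.63% of the WT list. The sign was the same in 157. The day contrasts of the genotypes share no library, though they share 1 fit and its estimate of the spread. Among the 1836 genes called higher in WT paws (8.49%), 92.9% had a positive value in Krt9-/- paws, with medians of 0.76 in WT and 0.40 in Krt9-/- paws. Among the 1745 called lower (8.07%), 84.8% had a negative value, with medians of -0.75 and -0.42. Genes chosen by the Krt9-/- calls show the reverse order: the 73 that rose had medians of 1.32 in Krt9-/- and 0.80 in WT paws, and the 93 that fell -1.26 and -0.99. In each case the genotype whose calls chose the genes has the larger median, so these medians do not compare the sizes of the changes. WT paws had 9 libraries against 5, and the counts of calls are not a measure of how much each genotype changed.

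**Figure D4:**
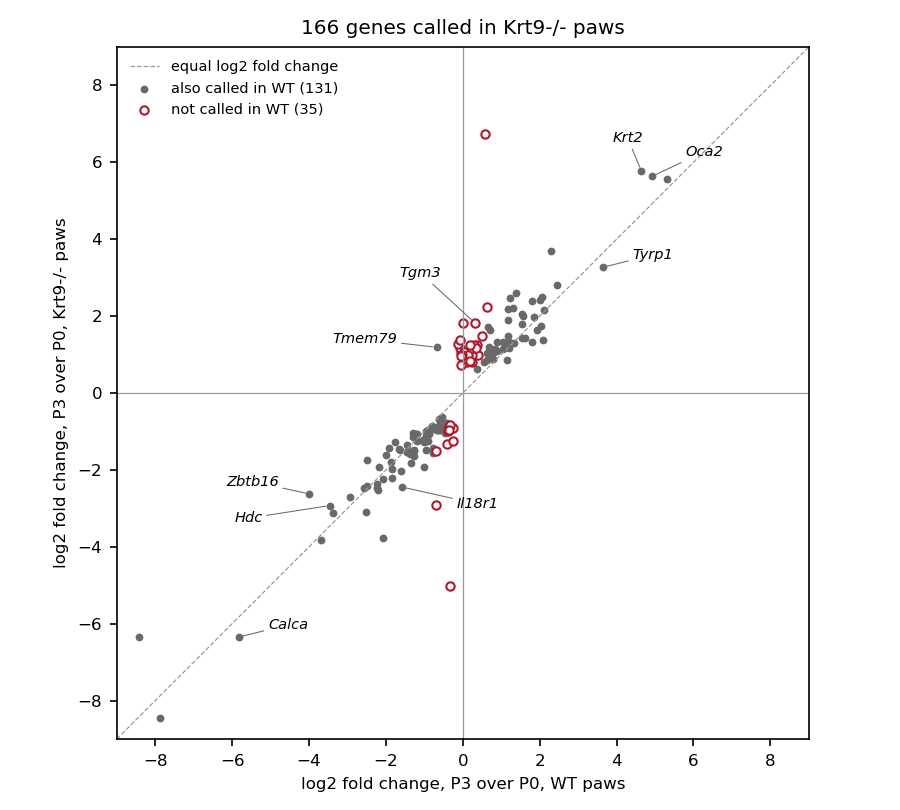
Log2 fold change of P3 over P0 in WT paws (x axis) and in Krt9-/- paws (y axis) for the 166 genes called in Krt9-/- paws. Filled points were also called in WT paws and open red points were not, and the dashed line marks equal values. The 35 open points lie towards the middle of the x axis, and Tmem79 is the filled point at -0.68 in WT and 1.19 in Krt9-/- paws.

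The test of the difference between the day changes called 0 genes with edgeR, with a smallest adjusted p of 0.107. At an unadjusted p under 0.05 it gave 1644 genes (7.6%), of which 1007 were positive, and DESeq2 called 87. Of the 166 genes 47 (28.3%) had such an unadjusted p. The 166 were chosen by the Krt9-/- day change, which is itself a part of this test. That choice raises their share, so it cannot be read against the 7.6%. Since no gene passed after adjustment with edgeR, the 35 genes not called in WT paws are not shown to be particular to Krt9-/- paws. Among the positive differences with the smallest p, Nccrp1, a protein of stratified epithelia, was at 114 and 77.9 CPM on P0 and at 170, 94 and 107 CPM on P3 in Krt9-/- paws, and fell by 1.61 in WT paws (unadjusted p = 6.265e-06). Lor had a difference of 1.86 (unadjusted p = 1.734e-05). Among the negative ones, Cdc45, a helicase component of DNA replication, had a fitted value of -0.01 in Krt9-/- paws and rose by 0.93 in WT paws (unadjusted p = 0.000285). Icam2, an endothelial adhesion protein, was at 14.9 and 16.6 CPM on P0 and at 7.22, 10.5 and 7.34 CPM on P3, while WT paws overlapped between the days (unadjusted p = 0.000378).

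Over the 54 gene lists 37 of the 920 distinct members tested were called, in 18 lists, against 0.768% of all genes tested. The lists were chosen with earlier results of these data known, so this count is not a result about their members. The cell cycle and DNA replication lists held no call in Krt9-/- paws, with medians of 0.10 over 33 genes and 0.40 over 32, while WT paws had 19 and 25 members called higher and medians of 0.43 and 0.75. Of all genes tested 8.49% were called higher in WT paws. In Krt9-/- paws 27 of the 32 replication genes had positive values, against 10647 of the 21619 genes tested. Without overlap 18 were higher on P3, against 11.8% of all genes tested. The fit with the block term called 7 higher and DESeq2 4, where these fits called 4.95% and 5.04% of all genes in either direction. In the test of the difference 8 cell cycle and 7 replication genes (24.2% and 21.9%) had an unadjusted p under 0.05, against 7.6% of all genes tested. Inner root sheath keratins, which line the growing hair, had a median of 2.95 over 8 genes, and none was called. On P3 7 of the 8 were higher without overlap, against 11.8% of all genes tested. Their summed level was 161 and 84 CPM on P0 and 1320, 1080 and 199 CPM on P3, so replicate 3 of P3 stayed near the P0 libraries. In WT paws all 8 were called higher.

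**Figure D5:**
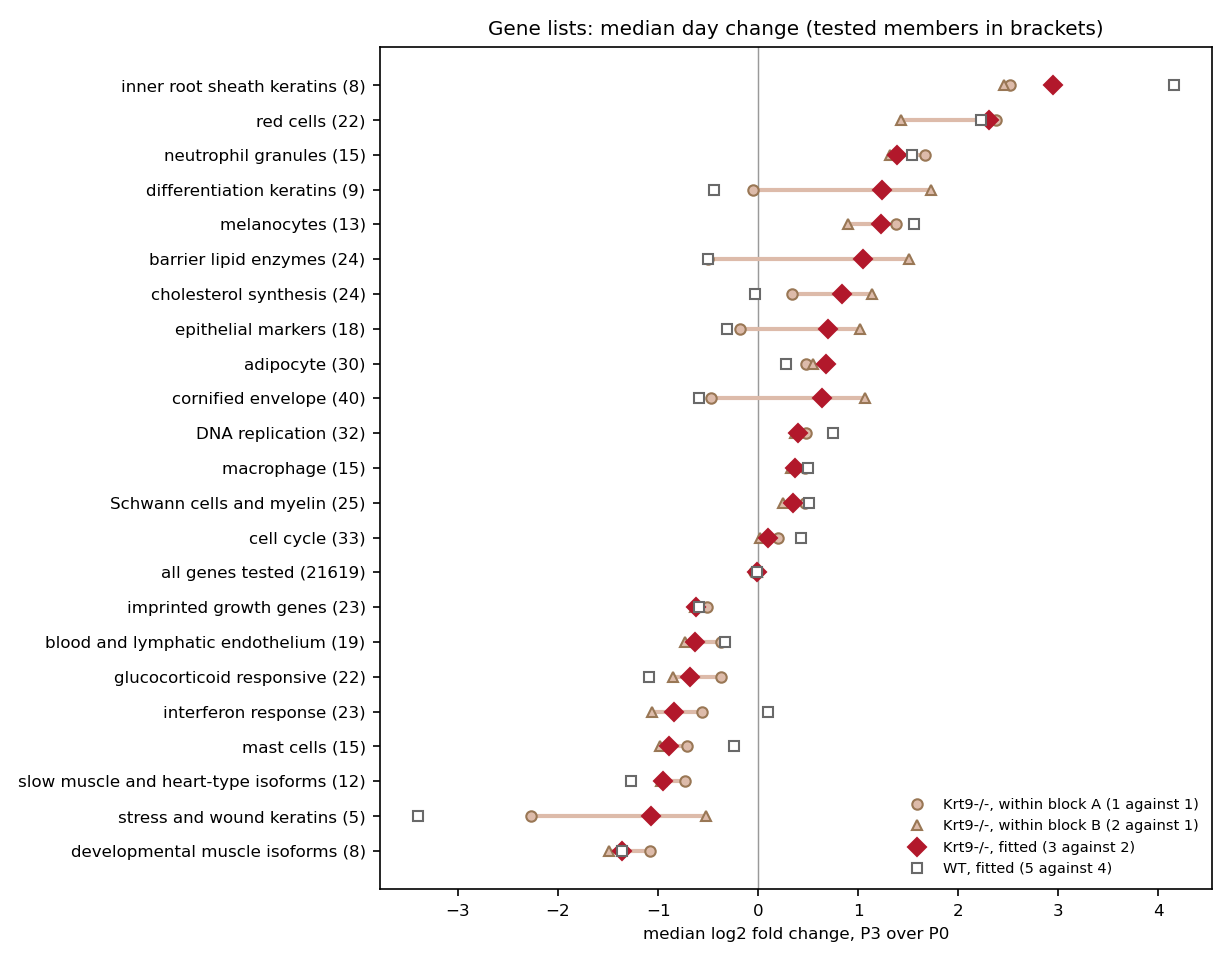
Median log2 fold change of P3 over P0 for 22 gene lists and for all genes tested. Red diamonds are fitted medians in Krt9-/- paws, open squares in WT paws, and the tan circle and triangle are the Krt9-/- medians within block A and block B. Several epidermal lists lie far apart between the blocks, as for barrier lipid enzymes at -0.50 and 1.51, and the muscle isoforms of the fetus lie at -1.36 in both genotypes.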

How the data were processed

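The authors deposited a table of raw read counts per gene for 14 libraries of whole paws, without normalization. Tools listed in the submitters' processing notes are featureCounts, limma, edgeR and STAR 2.7.10a, and the build listed is GRCm39. The strand setting is not stated there, so reads of a gene and its antisense partner cannot be told apart. Of 56691 gene IDs 52073 matched a symbol.

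Groups follow the labels' genotype and day. Genes were kept by filterByExpr (21619), given TMM factors, and tested by the quasi-likelihood method of edgeR 4.0.16 (robust, R 4.3.3). The model held 14 libraries, 4 groups, sex as a covariate and 9 residual degrees of freedom. P-values were adjusted over all genes tested by the Benjamini-Hochberg method and called under 0.05. Log2 fold changes and SE are fitted values, and folds of genes at few counts depend on the fit's prior count. Differences within blocks are of mean log2(CPM + 0.5) and were chosen after seeing the data. Tested on simulated counts of this comparison (20996 genes), the fit recovered 36% of genes changed by a log2 of 1 and 84% of those changed by 2, with 5 false calls. The changed genes were drawn from those with a mean of at least 1 CPM, so the recovery does not cover genes below it. The simulated libraries varied independently around a common mean per gene, without differences of sex, block or tissue make-up. The 5 false calls therefore do not measure those of the real libraries.

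The members, the 54 gene lists and the rules were chosen with earlier results of these data known. Named genes were Krt9, Krt19, up to 12 each way with the largest change among called genes of at least 2 CPM without overlap, up to 8 each way with the highest CPM, up to 3 called members of each list or else 2 abundant ones, 5 each way with the smallest interaction p, and fixed isoform sets. Other list members, such as Sqle and Fkbp5, were named after their values were seen. Of the called genes, 11 stayed under 2 CPM on both days and 8 are unnamed or predicted.

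Same-numbered litters did not pair libraries: no pair of Krt9-/- libraries shares a number, and the residual correlation of same-numbered libraries ran from -0.275 to 0.104. Alternatives were other scaling, filters, DESeq2 1.42.0, limma 3.58.1 voom, litter and column block terms, no sex term, fewer groups, and each library left out. Promoters are RefSeq's, on GRCm38.p6. Python 3.11.15 with pandas 2.3.3, NumPy 2.4.6 and matplotlib 3.10.9 did the rest. Some genes are not reported here.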

Additional observations from a re-analysis of the deposited data

How the results depend on the processing

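Genes called between the days in Krt9-/- paws numbered 166 as reported, 1090 with DESeq2, 1070 with the column block as a term, 98 with that term within each day (44 shared with the 166), 1692 with no filter, 41 with no sex term and 1 with only the 5 Krt9-/- libraries. Leaving out 1 library gave 0 to 645. As replicate block, litter gave 165 and moved no count of calls by over 1.5 times. In WT paws the count was 3581, and 5570 and 6027 with the block terms, with 1629 to 4332 on leaving out 1 library (1764, 1984 and 1629 without WT replicates 1, 2 and 3 of P0). Scaling by library size only split the WT calls into 2376 higher and 1062 lower, against 1836 and 1745. The interaction called 0, against 87 with DESeq2, 7 and 44 with the block terms, 1 by library size only, where its median over all genes was -0.18, 617 with no filter, and 0 to 47 on leaving out 1 library (47 without WT replicate 4 of P0, 13 without Krt9-/- replicate 2 of P3). The interaction could not be fitted on 1 genotype alone. Without a P0 library of Krt9-/- paws the lone library is assumed to vary like the other groups. Of 1638 values of the 63 named genes called, 1138 kept their call, 500 lost it and 0 reversed. The Krt9-/- days do not overlap in any called gene, so a reversal was hardly possible. The 0 is therefore no further check of their direction. The causes were not tested. With 2 and 3 libraries a gene not called may still have changed.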

Other observations

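Several tissues of the paw had no gene called between the days in Krt9-/- libraries. In cartilage, 23 genes had a median log2 fold change of 0.45, which was 0.87 and 0.03 without replicates 1 and 2 of P0 and 0.78, -0.24 and 0.17 without replicates 1, 2 and 3 of P3, and -0.64 in block A against 0.84 in block B. Col2a1, its main collagen, was at 1030 and 101 CPM on P0 and at 760, 890 and 576 CPM on P3. The P0 libraries differed by more than the days. Of 17 osteoblast and osteocyte genes none was called, with a median of 0.80. It was 1.34 without replicate 1 of P0, 0.15 without replicate 2 of P0 and 0.19 without replicate 2 of P3. Spp1, osteopontin, was at 854 and 1310 CPM on P0 and at 776, 1070 and 886 CPM on P3. Of 13 tendon and joint genes none was called, with a median of -0.05 that ran from -0.18 to 0.09 on leaving out 1 Krt9-/- library, and the tendon membrane protein gene Tnmd was at 297 and 320 CPM on P0 and at 343, 298 and 368 CPM on P3.

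Stress keratins were spread widely. Krt16, a keratin of wounded and load-bearing epidermis, was at 254 and 389 CPM on P0 and at 92.7, 12.4 and 113 CPM on P3, so the days did not overlap, and its log2 fold change of -2.15 (± 0.89 SE) had an adjusted p of 0.274 by edgeR. In WT paws it fell by 4.17 (edgeR's adjusted p = 0.00488), and the difference had an unadjusted p of 0.106. Krt17 overlapped between the days, at 504 and 298 against 369, 461 and 291 CPM. The immunoglobulin heavy chain gene Ighm was at 3.21 and 3.98 CPM on P0 and at 17.6, 19 and 6.99 CPM on P3 (log2 fold change 2.01 ± 0.52 SE, adjusted p = 0.0937 by edgeR), with 2.08 in WT paws, where it was called.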
